A study of Homo sapiens with 4 samples.

Results

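Intron peaks of protein-coding genes are the stretches of intron at which RNA recovered with the methyltransferase NSUN2 was called enriched over input. They were taken from the authors' peak lists of vehicle and lactate cells as every peak annotated to a protein-coding gene with intron as the last part of its annotation. The vehicle list held 48052 such peaks of 95785 in all, and the lactate list held 25152 of 48104. Together they make 73204 of 143889 listed peaks.

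The cells were PANC-1, an established human line of pancreatic ductal adenocarcinoma, labelled wild-type. They received 30 mM sodium lactate or water (ddH2O, the vehicle) for 24 h. RNA was immunoprecipitated (IP) with an antibody against NSUN2, and input RNA was set aside before that step. Libraries were made with a SMART-Seq v4 kit, which copies full-length cDNA from small amounts of total RNA. There was 1 library for each of the 4 groups, which are input and IP of vehicle cells and input and IP of lactate-treated cells, so no difference between conditions has a replicate check and no test was run. The intervals below are 95% intervals that cover counting alone.

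Introns are transcribed with the rest of a gene and removed by the spliceosome, mostly while the RNA is still in the nucleus. Intron reads can therefore come from unspliced or partly spliced transcripts, or from excised introns where the library kit copies them. The kit's priming, which sets the RNAs that are copied, was not examined here. Which of these sources, or what other, gave the reads here was not tested. NSUN2 places 5-methylcytosine (m5C) on tRNAs and on some mRNAs and non-coding RNAs, and is found in the nucleus, including the nucleolus. The listed folds compare an IP library with its own input at the same place. They carry no information on methylation itself, and no control immunoprecipitation with an unrelated antibody was analysed here.

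For 3 intron peak sites the sequence is given, because peaks of both lists cover the same bases there and a RefSeq window holds the sequence. A window is the 250 bases before an annotated start and the 50 after (GRCh38.p14). Only 63 vehicle and 30 lactate intron peaks touched any of the 35116 windows, or 0.131% and 0.119% of them, and 10 windows were touched in both lists. The sites were picked after their values were seen. The letters are the bases before the annotated start that both peaks cover, 5′ to 3′ on the strand of the gene named first. The USP54 and TRPC1 peaks lie at 18.9% and 12.3% of the RefSeq gene span, so those starts are within the gene. Capitals mark a run of at least 4 tandem copies of a trinucleotide (runs of a single base apart, this strand only).
USP54 (chr10:73601622-73601871): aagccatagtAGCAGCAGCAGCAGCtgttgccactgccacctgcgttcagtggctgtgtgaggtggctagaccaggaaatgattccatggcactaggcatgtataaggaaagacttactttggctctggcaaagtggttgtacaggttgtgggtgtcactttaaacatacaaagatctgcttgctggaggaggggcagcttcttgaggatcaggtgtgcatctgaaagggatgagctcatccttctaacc
TRPC1 (chr3:142734070-142734191): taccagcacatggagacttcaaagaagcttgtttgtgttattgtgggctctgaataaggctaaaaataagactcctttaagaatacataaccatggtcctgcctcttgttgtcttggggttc
ZNF841 start, peak annotated to ZNF432 (chr19:52094431-52094521): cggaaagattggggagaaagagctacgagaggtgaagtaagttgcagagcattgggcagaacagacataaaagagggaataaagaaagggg

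The USP54 stretch is 250 bases long with 50% G and C, and its capitals are 15 bases of AGC repeats. Such a run, of any trinucleotide, stands in 3.34% of all windows at the same place. The peak there had a fold over input of 18.2 in vehicle and 3.73 in lactate cells, with 38 and 21 IP reads. USP54 was at 0 FPKM (fragments scaled by gene length and library size) in both inputs. The TRPC1 stretch of 122 bases has 41.0% G and C and no such run, against a share of 2.0% of windows, and TRPC1 encodes a calcium-permeable channel. Its folds were 3.82 in vehicle and 4.22 in lactate cells. The ZNF841 stretch of 91 bases, where the authors' annotation gives an intron of ZNF432 but the RefSeq span of that gene does not reach, has 46.2% G and C and no such run, against 0.988% of windows. The fold there was 2.61 in vehicle and 6.78 in lactate cells. Each fold is relative to its own list's input and depth, so folds of the lists are set side by side here and below and no order is read from them.

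Depth bears on every count that follows. Whole reads behind the gene values and the authors' peak comparison were recovered, the latter checked at the 113290 of 116484 compared peaks with fewer than 200 reads in each IP and extended without a check to those with more. Gene reads are known only up to a whole factor that can differ between genes, so sums over genes are approximate. By total reads, the vehicle IP library was 0.897 times the size of the lactate IP library. Yet it held about 1.95 times as many reads on nuclear genes. Input libraries showed the same direction, with 2.35 times as many nuclear gene reads in vehicle as in lactate cells. By total reads, the lactate input library was 0.634 times the size of the vehicle input library. Fewer listed peaks in lactate cells therefore go with fewer reads on nuclear genes in that library, and the part of depth in the counts was not tested. FPKM is scaled by library size, and nuclear genes held a smaller part of both lactate libraries. Genes of at least 1 FPKM numbered 6529 in vehicle and 5405 in lactate input, and 8102 and 5646 in the IP libraries. No order of the conditions is therefore read from FPKM below.

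Introns held the largest class of peaks in both lists, and their share hardly differed. Of all peaks annotated to protein-coding genes, introns held 61.2% (60.9 to 61.6) in vehicle cells and 61.5% (61.0 to 62.0) in lactate cells. Exon peaks numbered 16497 and 7668, 3′ UTR peaks 12384 and 7416, and 5′ UTR peaks 1558 and 647. The lactate list held 0.523 times as many intron peaks as the vehicle list. The same ratio was 0.502 for all listed peaks, 0.465 for exon, 0.599 for 3′ UTR and 0.415 for 5′ UTR peaks.

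Intron peaks were narrower than exon and 3′ UTR peaks and close to 5′ UTR peaks. Their median width was 215 bp for vehicle and 201 bp for lactate peaks, against 327 and 280 bp for exon peaks, 332 and 300 bp for 3′ UTR peaks and 224 and 209 bp for 5′ UTR peaks. The shortest listed width, exactly 200 bp, was that of 47.0% of vehicle and 49.7% of lactate intron peaks. Among exon peaks 28.0% and 30.0% had that width, among 3′ UTR peaks 21.2% and 21.0%, and among 5′ UTR peaks 40.3% and 44.5%. The widest vehicle intron peak measured 9887 bp and the widest lactate one 5127 bp. In total the intron peaks covered 14.9 Mb in vehicle and 7.11 Mb in lactate cells.

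**Figure D1:**
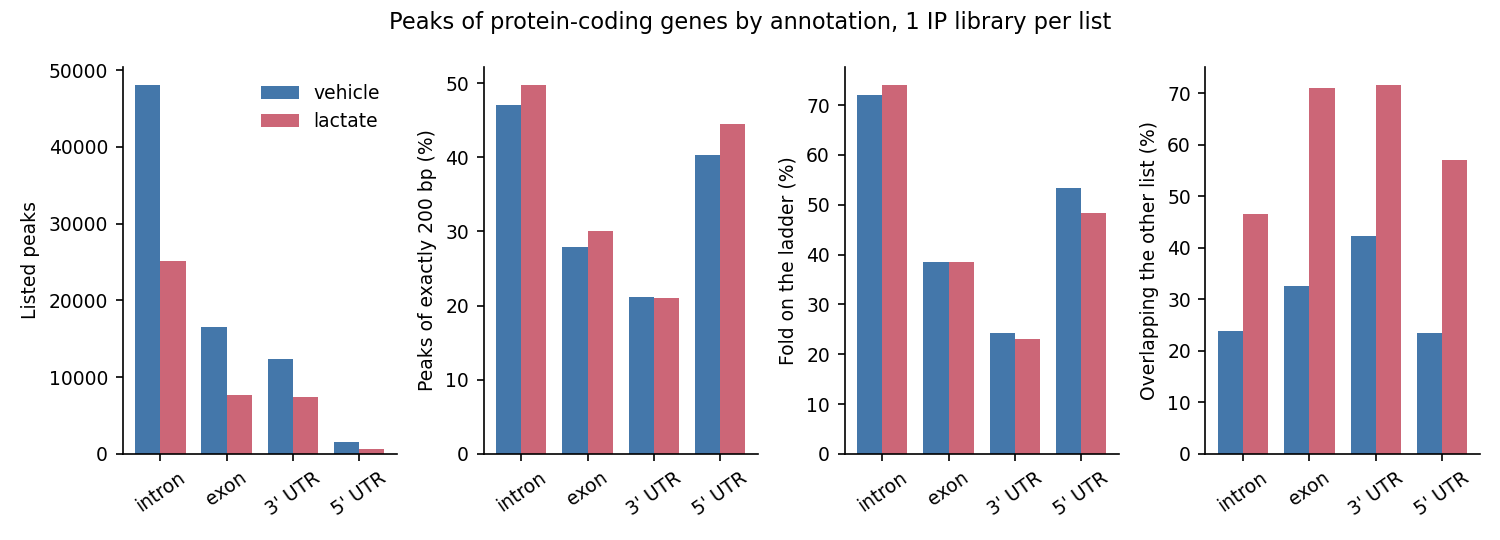
Bars give, for each annotation class of protein-coding genes and each list (1 IP library each), the number of listed peaks, the percent of exactly 200 bp, the percent whose fold lies on a set of equally spaced values (the ladder) and the percent overlapping a peak of the same class in the other list. Intron peaks were the most numerous at 48052 and 25152, most often on the ladder at 71.9% and 74.0%, and overlapped less often than exon and 3′ UTR peaks in both lists.

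A q-value under 0.05, as the authors' files give it, was reached by 41.8% of vehicle intron peaks (20064) and 35.1% of lactate intron peaks (8818). Over all listed peaks the shares were 48.6% and 42.7%. Exon peaks reached it in 62.5% and 55.9% of cases, 3′ UTR peaks in 70.6% and 65.0% and 5′ UTR peaks in 51.6% and 45.3%. Intron peaks were thus below the share of all peaks in both lists, although they are themselves just over 50% of it.

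The fold of an intron peak over its own input had a median of 3.03 in the vehicle list (quartiles 2.43 and 4.25) and 3.24 in the lactate list (2.73 and 4.33). The medians of 5′ UTR peaks were the same, 3.03 and 3.24, and those of exon peaks 3.52 and 3.64. These folds came in steps. Of vehicle intron peaks, 71.9% had a fold on a ladder of values 0.607 apart, and of lactate intron peaks 74.0% on one with steps of 0.517, within 1e-04. Steps of this kind would arise if whole fragments were counted over one constant background, but no header states how the folds were made, and this reading was not tested. The commonest vehicle values were 2.43 (8469 peaks), 1.82 (8180 peaks) and 3.03 (5636 peaks). In the lactate list they were 3.24 (3750 peaks), 2.73 (3619 peaks) and 2.21 (3083 peaks). Exon folds lay on the ladder in 38.5% of cases in each list, 3′ UTR folds in 24.3% and 23.1%, and 5′ UTR folds in 53.3% and 48.4%.

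**Figure D2:**
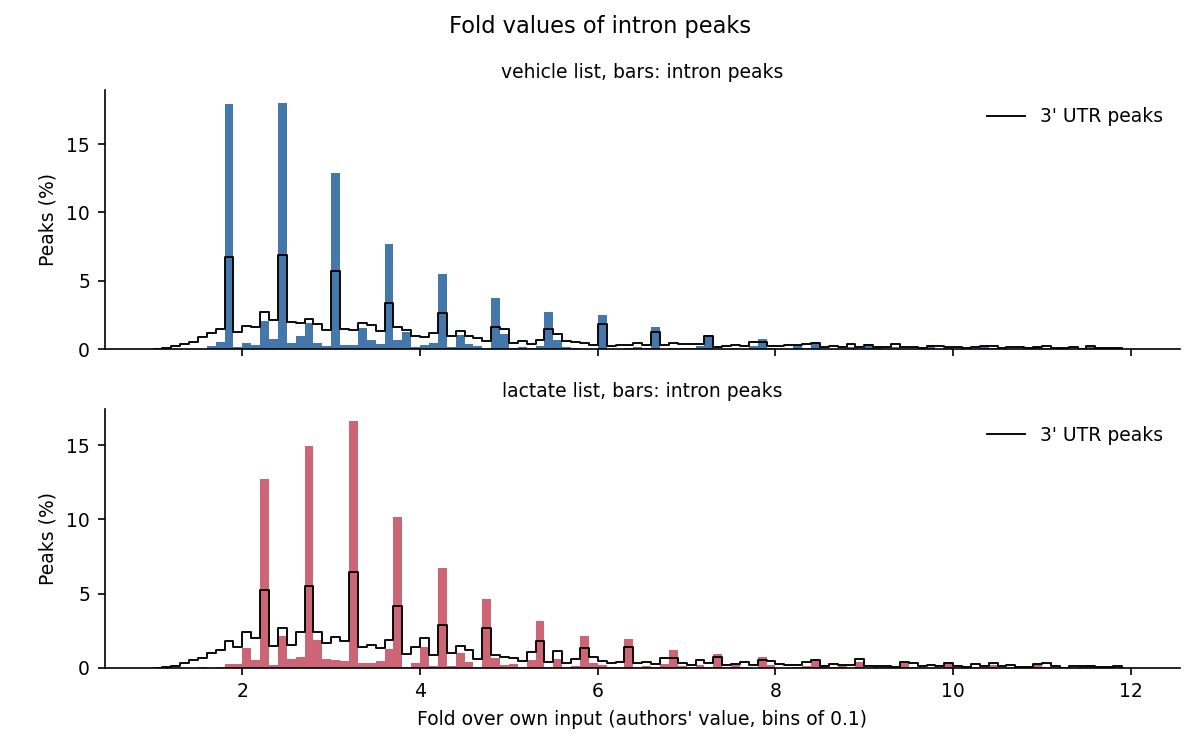
Each panel plots the percent of peaks (y axis) by the authors' fold over own input (x axis, bins of 0.1, folds up to 12), with bars for intron peaks and a black line for 3′ UTR peaks of the same list. Intron folds pile up on evenly spaced values, 0.607 apart for vehicle and 0.517 apart for lactate, while the 3′ UTR peaks fill the space between them more.

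A smaller share of intron peaks than of exon or 3′ UTR peaks was listed in both conditions. The share of intron peaks that overlapped was also under that of all listed peaks. Of vehicle intron peaks, 11499 or 23.9% (23.6 to 24.3) overlapped a lactate intron peak by at least 1 bp, and 11704 or 46.5% (45.9 to 47.2) of lactate intron peaks overlapped a vehicle one. Over all listed peaks and any annotation, the shares were 27.8% and 56.4%. Exon peaks overlapped exon peaks in 32.6% and 71.1% of cases, 3′ UTR peaks in 42.3% and 71.6%, and 5′ UTR peaks in 23.4% and 57.0%. The lists differ in length, which limits the share of the longer vehicle list that can find a partner. Hardly any intron site was listed under another annotation in the other condition, with 36476 vehicle and 13253 lactate intron peaks overlapping no listed peak at all. With the vehicle list trimmed to the 25152 intron peaks of smallest p, 35.3% of vehicle and 36.3% of lactate peaks overlapped.

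Wider peaks and peaks of higher fold overlapped more often. A wider peak also meets an overlap of at least 1 bp more easily, and the part of width itself was not tested. Among peaks of exactly 200 bp, 9.34% (8.97 to 9.73) of vehicle and 27.6% (26.8 to 28.4) of lactate intron peaks were shared, and among those over 800 bp 76.9% (74.4 to 79.2) and 96.9% (94.5 to 98.3). Under a fold of 3 the shares were 12.3% and 29.3%, and at a fold of at least 10 they were 83.3% and 96.4%. The strongest class was small, at 1216 vehicle and 505 lactate peaks. Shared peaks had a median fold of 4.25 (vehicle) and 3.76 (lactate), and unshared ones 2.75 and 3.24.

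**Figure D3:**
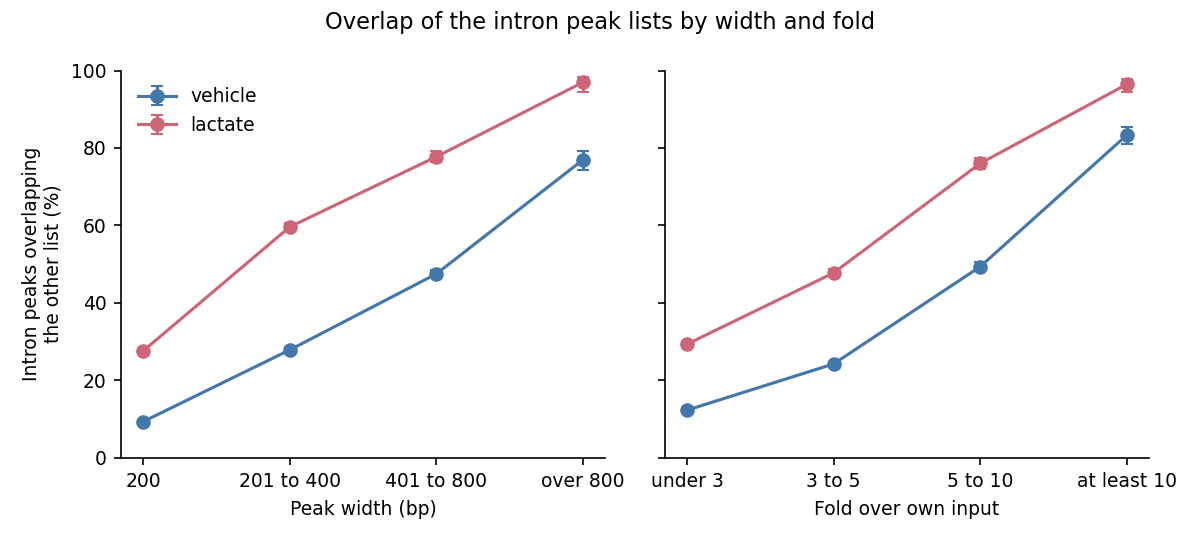
Points give the percent of intron peaks of each list that overlap an intron peak of the other list by at least 1 bp, by peak width in bp (left) and by fold over own input (right), with 95% Wilson intervals of the counts. In both lists each wider class is higher than the one before it, between 9.34% and 76.9% in vehicle and between 27.6% and 96.9% in lactate.

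The authors' comparison of the IP libraries gives, at 116484 compared peaks, the normalized log2 ratio M of lactate over vehicle. At the 61341 compared peaks that touched an intron peak of either list, the median M was −0.47 (quartiles −1.82 and 0.60), beside −0.50 over all compared peaks. An M of at least 1 was seen at 17.7% of them (10875 peaks) and over all compared peaks at 13.9%. An M of at most −1 was seen at 38.4% of them (23530 peaks) and over all at 38.6%. Of these, 8591 of the 10875 lay at sites listed in lactate alone and 22597 of the 23530 at sites listed in vehicle alone, so both shares follow the listing and nothing is read from them.

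Most of these sites rested on very few reads. The median intron site had 6 reads in the vehicle IP and 4 in the lactate IP, and 68.2% had fewer than 10 vehicle reads. At the 36473 sites listed in vehicle alone the medians were 6 and 2 reads, and 33.1% had 0 lactate reads. At the 13250 sites listed in lactate alone they were 2 and 7 reads, and 32.3% had 0 vehicle reads. The direction of M at sites of 1 list is set by that listing and is not a result.

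The 11349 intron sites listed in both conditions had medians of 14 vehicle and 12 lactate reads. Their median M was 0.16 (quartiles −0.34 and 0.70), against −0.24 at exon sites of both lists, −0.05 at 3′ UTR sites and −0.33 at 5′ UTR sites. Over all compared peaks listed in both it was 0.00. Equal reads gave a higher M at deeper sites, as set out below. Median vehicle reads at shared sites were 36 for exons, 72 for 3′ UTRs and 18 for 5′ UTRs, so no order of the classes is read from M. Summed reads at the shared intron sites were 1.21 times as many in the vehicle as in the lactate IP. At shared exon sites this ratio was 2.04, at 3′ UTR sites 1.80 and at 5′ UTR sites 2.01, beside the 1.95 of nuclear gene reads. The intron ratio moved with the choice of sites, at 1.38 over all intron sites, 2.39 at sites of vehicle alone and 0.562 at sites of lactate alone. Over all sites of a class it was 2.12 for exons, 1.88 for 3′ UTRs and 2.18 for 5′ UTRs. A listing in both conditions selects for reads in both libraries, and more so at shallow sites such as those in introns, so the part of this selection in the ratios was not tested.

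The share of peak reads that fell on introns also differed between the IP libraries. Over all compared peaks of protein-coding genes with a single annotation class, introns held 20.3% of 3134616 reads in the vehicle IP and 26.9% of 1713633 reads in the lactate IP. Exons held 36.4% and 31.1%, 3′ UTRs 42.1% and 41.0%, and 5′ UTRs 1.22% and 1.03%. More than 50% of the vehicle reads lay at peaks with 200 reads or more, where the recovery was not checked. With peaks of fewer than 200 reads alone, the intron shares were 40.9% and 48.8%, and at common peaks alone 13.0% and 19.1%. The intron share was higher in the lactate library each time, at sites that were themselves chosen by calls in these libraries. Input reads at these sites were not analysed here, so whether the input libraries differed in the same way was not tested.

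Gene by gene, intron peaks were found in 7974 protein-coding genes of the vehicle list and 6035 of the lactate list. Both lists held 5377 genes, or 67.4% of the vehicle and 89.1% of the lactate genes. A gene can hold many peaks, so these shares are not comparable with the overlap of the sites themselves. A further 2597 genes had intron peaks for vehicle alone and 658 for lactate alone. The median was 3 peaks per gene in vehicle and 2 in lactate, and 30.5% and 36.7% of the genes had 1 peak. The 1382 genes with at least 10 vehicle intron peaks, called hub genes here, held 58.9% of all vehicle intron peaks. Of genes with intron peaks, 24.7% in the vehicle and 37.0% in the lactate list had no exon or UTR peak. Matching shares of genes for exon and UTR peaks are not given here, so none of these shares is read as particular to introns.

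The genes with the most intron peaks were long ones. SYT1, a calcium sensor of vesicle fusion, led both lists with 102 vehicle and 63 lactate peaks over a span of 588 kb. Its reads at these sites were 2800 in the vehicle and 2024 in the lactate IP, and its FPKM was 12.3 in vehicle input, 14.6 in vehicle IP, 9.54 in lactate input and 6.18 in lactate IP. SYT1 is also a marker of neurons. Of the 12 neuron and Schwann cell markers listed, 8 matched a gene with FPKM values, 2 reached an FPKM of 1 in some library, none was at 0 throughout, and their summed FPKM ran from 6.77 in lactate IP to 15.7 in vehicle IP, most of it SYT1. MAP2, a microtubule protein of dendrites, was the other with peaks in both lists, 20 and 5, while RBFOX3, the neuronal nuclear marker NeuN, was listed at 0 FPKM in all but the lactate IP. Any part of neuron-like expression in the peak counts was not tested.

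SLC35F3, a solute carrier, had 101 vehicle and 52 lactate intron peaks, with 2373 and 1568 IP reads at them. KCNQ5, a voltage-gated potassium channel, had 93 and 48, and THSD4, a protein of extracellular microfibrils, had 92 and 54. FAF1, a FAS-associated factor, had 87 and 48, LPP, a LIM protein of focal adhesions, 85 and 44, and PRKCA, protein kinase C alpha, 84 and 53. The FERM domain genes FRMD4A and FRMD5 had 82 and 34, and 77 and 49. RABGAP1L, a Rab GTPase regulator, completed the vehicle leaders with 77 and 38. All of these had more peaks in the vehicle list, as did the lactate leaders not yet named. Those were ZC3H12B, of a ribonuclease family, with 73 and 58, ZFAND3 with 73 and 54, JMJD1C, a jumonji-domain protein, with 70 and 49, and APP, the amyloid precursor protein, with 58 and 48.

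Hub genes were chosen by their vehicle peaks, so their ratios to lactate are a description and lean to the vehicle side. They had a median of 0.5 lactate peaks for each vehicle peak (quartiles 0.388 and 0.636), and 31 of the 1382 had as many or more in the lactate list. The median ratio of vehicle to lactate IP reads at the intron sites of a hub gene was 1.41 (quartiles 1.20 and 1.71), and 107 hub genes had more lactate than vehicle reads. The genes at the ends of the range, chosen after their values were seen, put listed peaks and reads side by side. PRICKLE1, a planar cell polarity gene, had 12 vehicle peaks and 0 lactate peaks, with 78 and 25 reads. TGFB1, the growth factor TGF-beta 1, had 10 and 0 peaks, but 78 and 52 reads. WWC2 had 19 peaks and 1 peak, with 148 and 53 reads. At the other end, SOS1, a guanine nucleotide exchange factor for RAS, had 19 and 24 peaks with 689 and 613 reads, and CDK19, a Mediator kinase, had 18 and 22 peaks with 263 and 279 reads. SOS1 thus had more listed peaks but fewer reads in the lactate IP.

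**Figure D4:**
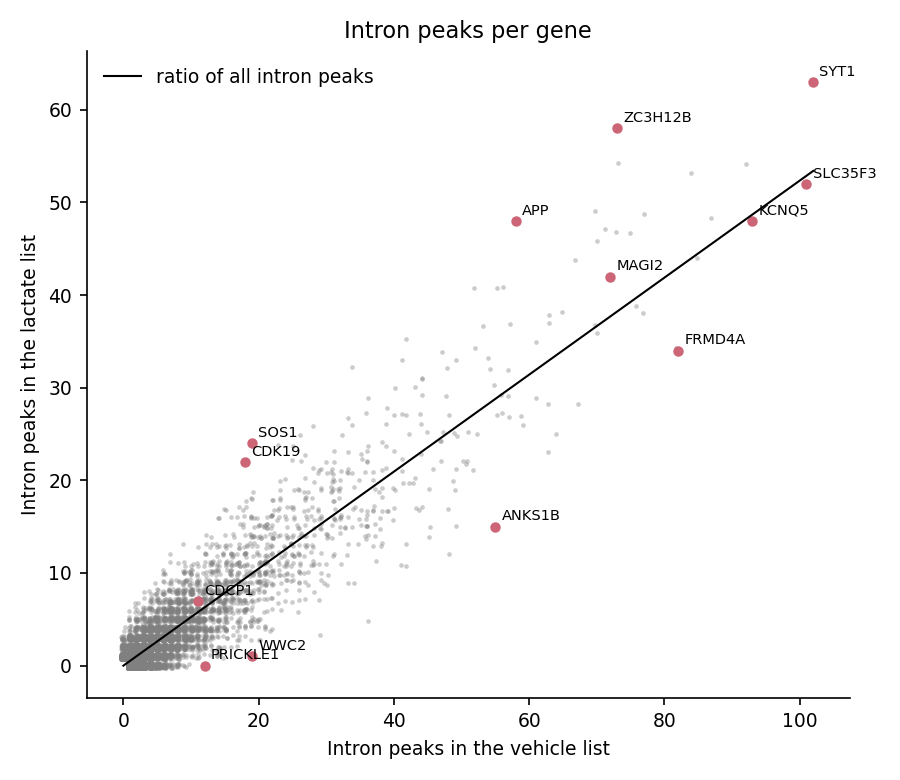
Each point is a protein-coding gene, placed by its number of intron peaks in the vehicle list (x axis) and the lactate list (y axis), with a small random shift to separate points, and the line has the slope of all intron peaks, 0.523. SYT1 lies highest at 102 and 63, SOS1 and CDK19 lie above the line, and PRICKLE1 and WWC2 lie at or near 0 lactate peaks.

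Named single sites were the 10 intron peaks of highest fold with q under 0.05 in each list, among those that overlapped the other list. Since each set was picked in the list where it is high, differences between the conditions at these sites are a description. The highest fold of the lactate list lay in an intron of TNS3, a tensin of focal adhesions, at chr7:47338511-47339764. The fold was 80.2 in lactate and 34.9 in vehicle cells, with 271 lactate and 161 vehicle IP reads and an M of 1.68. A second TNS3 site at chr7:47340608-47342223 had folds of 28.3 and 13.5, with 248 and 257 reads and an M of 0.92. In DST, a cytoskeletal linker, the site at chr6:56784340-56785489 was the highest of the vehicle list, with a fold of 51.5 there and 57.3 in lactate, 202 and 203 reads and an M of 0.93. At the checkpoint kinase gene ATR (chr3:142479720-142480424) the fold was 48.9 in vehicle and 21.6 in lactate cells, with 172 and 107 reads and an M of 0.14. M is normalized between the libraries, so it can be above 0 where the raw reads are fewer in lactate, as at ATR. At equal or near-equal reads M was also higher at deeper sites. It was 0.10 at an NSUN2 site of 6 and 6 reads and 0.38 at a CDCP1 site of 21 and 21. At DST it was 0.93 and at ZNF780B, with 1472 and 1465 reads, 1.40. An M above 0 at a deep site is therefore not read as more lactate signal.

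Of the other vehicle leaders, most had an M above 0 as well. THSD4 had 148 vehicle and 92 lactate reads with an M of 0.11, TMEM181 131 and 94 with 0.30, and ANKRD12 194 and 117 with 0.12. ALMS1, a centrosomal protein gene, had 105 and 97 reads with an M of 0.64. The deepest site was that of the zinc finger gene ZNF780B at chr19:40042515-40043370, with 1472 and 1465 reads (beyond the checked range) and an M of 1.40. ATRX, a chromatin remodeller, and ANKRD11, a chromatin regulator, were the vehicle leaders with an M below 0, at 123 and 40 reads with an M of −0.93 and 96 and 37 reads with −0.73. All lactate leaders had an M above 0, which deep sites of near-equal reads also had. NTSR1, the neurotensin receptor, had 58 vehicle and 122 lactate reads with an M of 1.77. ANO6, a calcium-activated scramblase, had 68 and 101 reads with 1.27, and TRIM16 47 and 75 with 1.29. SBF2 had 86 and 90 reads with an M of 0.78, GOLM2 129 and 148 with 1.03, and SCMH1 226 and 220 with 0.91. The drug transporter gene ABCC1 had 74 and 69 reads with an M of 0.57.

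Where intron peaks lay along a gene was much the same in both lists. Summits inside the RefSeq span of their gene (44538 of 46382 in vehicle, 23475 of 24272 in lactate) had a median position at 45.4% and 44.3% of the span from the start. The final 10% of the span held 5.16% and 4.56% of the summits, against 10.1% and 10.4% in the first 10% and 11.5% and 12.1% in the next. The length of intron in each part of the span was not computed, so no loss of signal is read from these shares. Another intron peak lay within 1000 bp of 26.4% of vehicle and 20.4% of lactate intron peaks. An exon or UTR peak of the same gene within 1000 bp was rarer, at 2.94% and 1.56%. No intron peak overlapped a miRNA hairpin of 1562 in RefSeq, while 32 vehicle and 24 lactate peaks of any annotation did. Peaks annotated to a miRNA gene cannot enter the intron set, so nothing is read from this difference. The span of another RefSeq lncRNA gene was overlapped by 6.54% and 5.87% of intron peaks, and whether those reads come from the intron or from that gene cannot be told apart.

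Intron peaks were commonest in genes of middling abundance in input. FPKM scales the fragments of a gene by its length and by the size of the library. Over the 14468 protein-coding genes with FPKM values, 50.9% had a vehicle intron peak and 39.3% a lactate one. In vehicle cells the share was 32.3% under 0.1 FPKM, 59.1% from 0.1 to 1, 62.8% from 1 to 5, 55.4% from 5 to 20 and 42.2% at 20 or more. In lactate cells it was 22.7%, 47.6%, 50.8%, 45.2% and 32.5% over the same classes. Genes of at least 20 FPKM were also the shortest, with a median span of 15.8 kb in vehicle cells against 34.4 kb from 1 to 5 FPKM. Exon peaks were likewise commonest from 1 to 5 FPKM, at 61.4% and 39.8%, so this course is not particular to introns. For 3′ UTR peaks the share was highest from 0.1 to 1 FPKM, at 60.7% and 48.1%, and it was 22.5% and 10.6% at 20 or more.

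**Figure D5:**
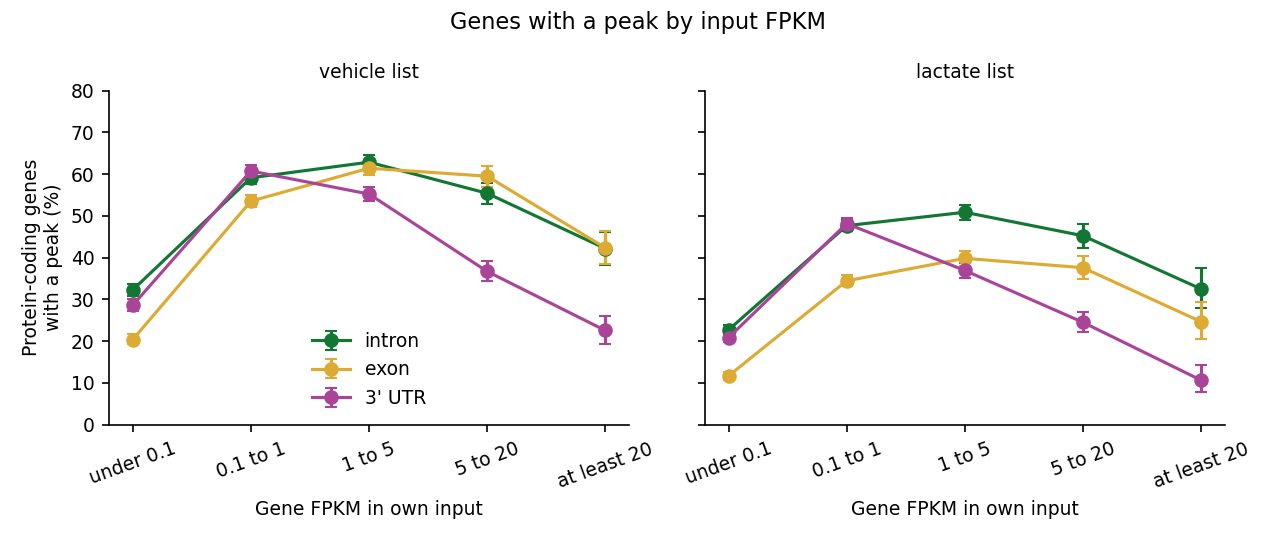
Points give the percent of protein-coding genes with at least 1 intron, exon or 3′ UTR peak (y axis) by the gene's FPKM in the condition's own input (x axis), with 95% Wilson intervals. The intron curve is highest from 1 to 5 FPKM in both lists, at 62.8% and 50.8%, as is the exon curve, at 61.4% and 39.8%. The 3′ UTR curve is at 22.5% and 10.6% at 20 FPKM or more.

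Genes with an intron peak had a median of 0.750 FPKM in vehicle input and 0.606 in lactate input, and 43.9% (42.7 to 45.0) and 38.7% (37.4 to 39.9) of them reached 1 FPKM. Read in the other condition's input, the medians of the same genes were 0.521 and 0.876 FPKM. The order of the conditions thus turned, and none is read from FPKM. Genes without an intron peak had medians of 0.233 and 0.187 FPKM and reached 1 FPKM in 32.1% and 27.2% of cases. Median spans of genes with an intron peak were 59.8 kb in vehicle and 70.0 kb in lactate, against 14.2 and 17.3 kb for genes without. Length and abundance both went with the peaks. Of the longest 3548 genes, those of at least 1 FPKM had an intron peak in 97.2% (vehicle) and 93.7% (lactate) of cases, with 8.27 and 4.80 peaks per 100 kb. Those under 0.1 FPKM had 1.08 and 0.622 peaks per 100 kb. The shortest 3548 genes of at least 1 FPKM had intron peaks in 11.8% and 7.05% of cases, at 3.45 and 1.74 per 100 kb. Across genes with an intron peak, Spearman's rho of peak number and span was 0.55 in vehicle (7633 genes) and 0.53 in lactate (5772 genes), and genes in 1 library share its depth.

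The genes of highest input FPKM with an intron peak ranged from 1 to 13 vehicle peaks. NPM1, a nucleolar chaperone at 427 FPKM in vehicle input, had 1 vehicle and 2 lactate peaks, and ACTG1, cytoplasmic actin at 387 FPKM, had 1 and 0. S100A11, a calcium-binding protein at 376 FPKM, had 1 and 0, and MORF4L2, a chromatin protein at 354 FPKM, 2 and 2. RTN4, a reticulon of the endoplasmic reticulum with a span of 166 kb, had 13 and 7. In lactate input CYP1B1, a cytochrome P450 at 270 FPKM, had 4 vehicle and 2 lactate peaks, and ACTR2, an actin nucleator, 9 and 2. At the other extreme, genes under 0.1 FPKM in both inputs could have many. SDK1, a cell adhesion protein, had 76 and 39, MAGI2, a synaptic scaffold, 72 and 42, and ANKS1B 55 and 15. WWOX, an oxidoreductase at a fragile site, had 48 and 17, and DOCK3, a RAC activator, 44 and 31. These 5 genes span between 709 kb (DOCK3) and 1437 kb (MAGI2).

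Among gene lists, that of 20 very long genes of common fragile sites had the highest count, with 19 carrying vehicle and 17 lactate intron peaks, 463 and 199 in all, at a summed FPKM between 1.20 and 3.15 in the 4 libraries. The shares of all genes with FPKM values were 50.9% and 39.3%, and the list's median span was 1195 kb. EXOC4, of the exocyst complex, had 64 and 25 peaks and DLG2, a synaptic scaffold, 34 and 19. Of 35 genes known for retained or detained introns and poison exons, 15 and 11 had intron peaks, 43 and 26 in all, with RSRP1 at 13 and 7, the splicing factor LUC7L at 7 and 4, NKTR at 4 and 1 and SRSF4 at 2 and 3. Of 30 protein-coding hosts of intronic snoRNAs, 9 and 7 had them, 20 and 15 in all. IPO7, an importin, had 3 and 5, SF3B3, a splicing factor, 5 and 1, TAF1D 2 and 3, and the nucleolar protein gene WDR43 3 and 2. Both lists lie below the share of all genes, and the snoRNA hosts are short, with a median span of 6.0 kb.

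Of 17 m5C writers, erasers and readers, 10 had vehicle and 8 had lactate intron peaks, 50 and 26 peaks in all, near the 50.9% and 39.3% of all genes. TET3 and TET2, dioxygenases that act on 5-methylcytosine, had 16 and 6, and 8 and 3. NSUN6, a methyltransferase of the NSUN2 family, had 8 and 7, and YTHDF2, a reader of modified RNA, 6 and 4. NSUN2 itself had 1 vehicle peak with 6 vehicle and 4 lactate reads and 2 lactate peaks, none with q under 0.05. Its FPKM was 3.39 and 3.04 in vehicle input and IP, and 1.85 and 1.22 in lactate input and IP. Nuclear genes held a smaller part of the lactate libraries, so no order of the conditions is read from these values.

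CDCP1, a transmembrane glycoprotein taken as a gene of interest from knowledge of the study, had 11 vehicle and 7 lactate intron peaks, of which 9 and 4 had q under 0.05. In each list 6 of them overlapped the other list. The site at chr3:45099145-45099638 was the highest in vehicle cells, with a fold of 9.71 there and 3.24 in lactate and 27 and 12 reads. The site at chr3:45093937-45094294 was the highest in lactate cells, with folds of 7.89 and 5.46 and 34 lactate and 24 vehicle reads. Of the sites listed in vehicle alone, chr3:45096228-45096590 had 9 vehicle and 0 lactate reads (M −3.41), while chr3:45126247-45126452 had 5 and 11 (M 1.15). Another, chr3:45090492-45090742, lay in a compared peak with 199 and 219 reads (M 1.07), most of the gene's 371 vehicle reads. No order of the conditions is read from such sites. CDCP1 had FPKM of 3.13 and 16 in vehicle input and IP and 3.81 and 12.4 in lactate input and IP. STC1, a secreted glycoprotein hormone chosen in the same way, had no intron peak in either list.

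Of 32 genes of axon guidance, nerve growth and perineural invasion, 15 and 14 had intron peaks, 140 and 61 in all, again near the 50.9% and 39.3% of all genes. ROBO1, a receptor of SLIT ligands, had 34 and 9, and the semaphorins SEMA3C and SEMA3A had 21 and 9, and 17 and 8. NRP1, a semaphorin co-receptor, had 20 and 9. Of 17 genes of glycolysis and lactate metabolism, 10 and 8 had them, 31 and 20 in all, also near those shares, with the enzymes PFKP at 7 and 4, PKM at 4 and 5, GPI at 4 and 3 and ENO1 at 3 and 2. Of 14 genes of ductal and epithelial identity, 11 reached 1 FPKM in some library and 8 and 6 had intron peaks, 61 and 40 in all, near them too. The receptor EGFR had 32 and 20, MET 10 and 8, the integrin ITGB1 8 and 8 and the keratin KRT8 5 and 2. Of 14 markers of fibroblasts, endothelial and immune cells, 8 matched, their summed FPKM ran from 2.05 to 3.19, 2 reached 1 FPKM, and PDGFRB alone had an intron peak, 1 in the vehicle list.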

How the data were processed

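The authors deposited 1 peak list per condition (each IP over its own input, with a fold as a ratio, p-values, q-values and −log10 q), gene FPKM, and a comparison of the IP libraries with normalized signal, log2 values M and A and a P value that was not used, per the file headers. Per the submitters' processing notes, the tools named include MACS2 (2.2.7.1) and HISAT2 (2.1.0), and the build was GRCh38. The sources used here give no annotation release, read counter or strand use. Fold and q are the authors' values, relative to each list's own input and depth, and rank or filter within a list; folds printed side by side carry no order. Recovered reads come from M and A, with 100% whole within 0.02 reads at 113290 peaks under 200 reads in each IP and unchecked above. Gene reads came from FPKM ratios, whole for nearly all genes (99.96%) up to a factor that can differ between genes. Spans are RefSeq's (GRCh38.p14). Intervals are Wilson's. The overlap and read recovery were tested on simulated data (Python 3.11.15, pandas 2.3.3). Members and lists were chosen with earlier results of these data known. Named genes were the 10 with the most intron peaks per list, the 10 shared peaks of highest fold with q under 0.05, up to 4 per gene list, and extremes of input FPKM (5 per list or class). No genome was used, so no sequences of the peaks themselves were read, and the 3 printed come from RefSeq windows.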

Additional observations from a re-analysis of the deposited data

How the results depend on the processing

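With 1 library per group no result has a replicate error. No paired analysis was possible because each group holds 1 library. Of 65 alternative values, 18 stayed within the counting interval of the value reported or within 1.5 times a count, 45 moved and 2 changed sign. In what follows, values are vehicle then lactate. With q under 0.05 alone there were 20064 and 8818 intron peaks in 5133 and 3217 genes, with median widths of 352 and 322 bp, and introns made 50.2% and 48.4% of protein-coding peaks. Lactate overlap became 54.4%, shared genes 54.8% and 87.4%, genes of at least 1 FPKM 48.6% and 44.5%, and median FPKM 0.940 and 0.801. With a fold of at least 2, vehicle width became 258 bp, the intron share 59.7% and 62.8%, overlap 27.6% and 43.8%, shared genes 72.0% and 85.3%, the vehicle share of at least 1 FPKM 45.3% and its median 0.809. Requiring at least 50% of both peaks lowered overlap to 14.4% and 27.5%, equal list lengths gave 35.3% and 36.3%, and any annotation 47.3% in lactate. With 2 peaks per gene 63.6% and 92.3% of genes were shared. At FPKM of at least 0.1 the share of genes was 81.0% and 80.6%, at 5 it was 14.9% and 11.3%, and with the other condition's input 36.2% and 46.9%, so that the order of the conditions turned. Median FPKM was 0.521 and 0.876 in the other input, where the order also turned, and 1.18 and 0.685 in the own IP. Median M of intron sites, −0.47, became 0.024 relative to the median of all compared peaks and 0.16 at sites of both lists, so its sign rests on centring and on which sites enter. Of 2 settings chosen after seeing the data, the intron share of reads was 40.9% and 48.8% with fewer than 200 reads in each IP, and 13.0% and 19.1% at common peaks. At medians of 6 and 4 reads, single intron sites listed in 1 condition cannot be ordered between conditions at this depth.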

Other observations

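Intron peaks were spread over all autosomes and X in like proportions in both lists. Chromosome 1 held 9.18% of vehicle and 9.36% of lactate intron peaks, chromosome 2 8.69% and 8.75%, and chromosome 3 7.24% and 7.1%. The shares on chromosome 4 were 3.85% and 3.42%, and on chromosome 5 they were 5.22% and 5.57%. Beside exon peaks, intron peaks were a smaller part on the gene-dense chromosome 19, at 3.35% and 3.38% against 4.67% and 5.33%, and a larger part on chromosome 7, at 5.69% and 5.79% against 4.24% and 4.55%. Among intron peaks, 8 in the vehicle and 5 in the lactate list overlapped the span of a snoRNA gene of RefSeq.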
